A study of Mus musculus with 5 samples.

Results

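The genes described are 43 mouse genes that interferons induce or that serve MHC class I antigen presentation. They were given as a list of symbols and found on the array through the RefSeq accession of each probe, with the brightest probe standing for a gene. All 43 had a probe, of 20018 named genes on the array, and 38 of them were above background on all 5 arrays. The cells were tumour lines grown from soft tissue sarcomas of mice of mixed genetic background (C57/BL6, 129 and ICR), and every line carries EWS/ATF1 alleles that doxycycline switches on. EWS/ATF1 is the fusion transcription factor of human clear cell sarcoma. The 5 groups were cells exposed to a low or a high dose of doxycycline for 3 h, cells exposed to the high dose for 48 h, and control cells at 3 h and at 48 h, each with 1 array.

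The doxycycline concentrations, whether the control cells received any, the age and sex of the mice, and the promoter that drives the fusion are details not given in the sources used here. The labels do not tie an array to a tumour line, so a difference between arrays can include a difference between lines. No group has a replicate, and no difference between a pair of arrays carries a test. Every level below is the log2 of the processed signal minus the log2 of that array's 75th percentile of signal, and every difference is the doxycycline array minus the control array unless other arrays are named. The scanner's own error for a difference was about 0.204 at the median of the members, and it does not hold the variation between cultures. In a bulk sample, fewer cells of a type and less RNA per cell cannot be told apart.

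Type I interferons bind a receptor with JAK kinases, which activate ISGF3, a complex that includes STAT2 and IRF9 and binds the interferon-stimulated response element. Interferon gamma acts through the gamma-activated site, and IRF1 extends that response. The induced genes encode blockers of viral translation (the IFIT family), sensors and enzymes of RNA degradation (the OAS family), GTPases that attack pathogen vacuoles, and the immunoproteasome and transporter that load peptides onto MHC class I. Many cells hold a low level of these transcripts without infection.

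The promoters are shown because the response element in them is the site that ISGF3 binds. Promoters of 35 members, from 250 bases before to 50 bases after an annotated start, were in the RefSeq table of build GRCm38.p6. The response element core, searched as GAAA, any 2 bases and GAAA again on both strands with overlaps allowed, lay in 18 of the 35 (51.4%), against 3.99% of the 27025 genes in the table. The gamma-activated site, searched as TTCNNNGAA, lay in 11 (31.4%), against 9.55% of all genes. The stretches below run 5′ to 3′ along the gene's strand, end before an annotated start, and have the response element cores in capitals. The first 4 genes had 3 h high-dose levels below both control arrays by 2-fold or more, and the others show further roles and numbers of cores.
Ifit3: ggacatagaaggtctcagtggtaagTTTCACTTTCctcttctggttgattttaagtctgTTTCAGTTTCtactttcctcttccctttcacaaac
Ifit1: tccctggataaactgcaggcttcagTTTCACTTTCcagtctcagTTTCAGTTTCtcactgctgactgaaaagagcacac
Irgm2: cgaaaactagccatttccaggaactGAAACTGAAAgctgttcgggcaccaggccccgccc
Apol9b: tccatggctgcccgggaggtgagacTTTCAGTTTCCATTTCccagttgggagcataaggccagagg
Igtp: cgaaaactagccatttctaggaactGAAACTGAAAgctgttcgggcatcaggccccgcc
Stat2: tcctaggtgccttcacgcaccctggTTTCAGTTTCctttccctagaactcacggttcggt
Gbp2: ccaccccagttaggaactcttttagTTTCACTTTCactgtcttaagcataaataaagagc
Oas1a: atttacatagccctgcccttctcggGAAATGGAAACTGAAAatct
Isg15: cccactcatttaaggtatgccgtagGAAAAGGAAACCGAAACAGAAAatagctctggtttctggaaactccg
B2m: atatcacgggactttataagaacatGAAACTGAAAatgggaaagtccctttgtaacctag

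In GRCm38.p6 each of these stretches lies upstream of an annotated start of its gene. For Apol9b, with 2 annotated starts, this is the later start, and the last bases of its stretch run past the earlier one. Ifit3 is at chr19:34583348-34583441 and Ifit1 at chr19:34640760-34640838, both on the plus strand, and each holds 2 separate cores. Irgm2 at chr11:58214888-58214947 and Igtp at chr11:58199497-58199555, also on the plus strand, match at 57 of 59 bases compared. Apol9b at chr15:77729010-77729075 (plus strand) holds 2 overlapping cores, and Isg15 at chr4:156200850-156200921 (minus strand) holds 3. Stat2 is at chr10:128270251-128270310, Gbp2 at chr3:142620579-142620638 and B2m at chr2:122147523-122147582, all on the plus strand, and Oas1a is at chr5:120907526-120907570 on the minus strand. Oasl1, the only member at least 2-fold higher on the 3 h high-dose array than on both controls, had no core in its window. Of the 29 other members with a promoter that were measured on those arrays, 13 held the core. For the 48 h high-dose array against both controls, the core lay in 4 of 6 lower members with a promoter. It lay in 1 of 2 higher members and in 11 of 24 others measured there.

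At 3 h most of the listed genes had lower levels with doxycycline. Of 40 members measured on both arrays, 12 were lower by 2-fold or more on the high-dose array than in the 3 h control and 1 was higher, against 1.44% and 1.86% of all measured genes. The members' median difference was -0.65, against -0.01 over all genes, and 39 of the 40 lay below 0. Set against the 48 h control array instead, 9 of 41 were lower and 1 was higher (3.07% and 1.97% of all genes), with a median of -0.57, and normexp background correction left 4 lower. The low dose gave 3 of 40 lower and 0 higher than the 3 h control (0.583% and 0.761% of all genes), with a median of -0.48. Against the 48 h control it gave 7 of 41 lower and 0 higher (3.28% and 2.08% of all genes), with a median of -0.41 and 3 lower under normexp. In that comparison 32 of the 41 lay below 0 and 9 above. Counting only members past 2-fold against both controls at once, the high dose gave 4 of 40 lower (Ifit3, Ifit1, Irgm2 and Apol9b) and 1 higher (Oasl1), against 0.430% and 0.832% of all genes, and the low dose gave Ifit3 alone as lower and 0 higher (0.215% and 0.408%).

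**Figure D1:**
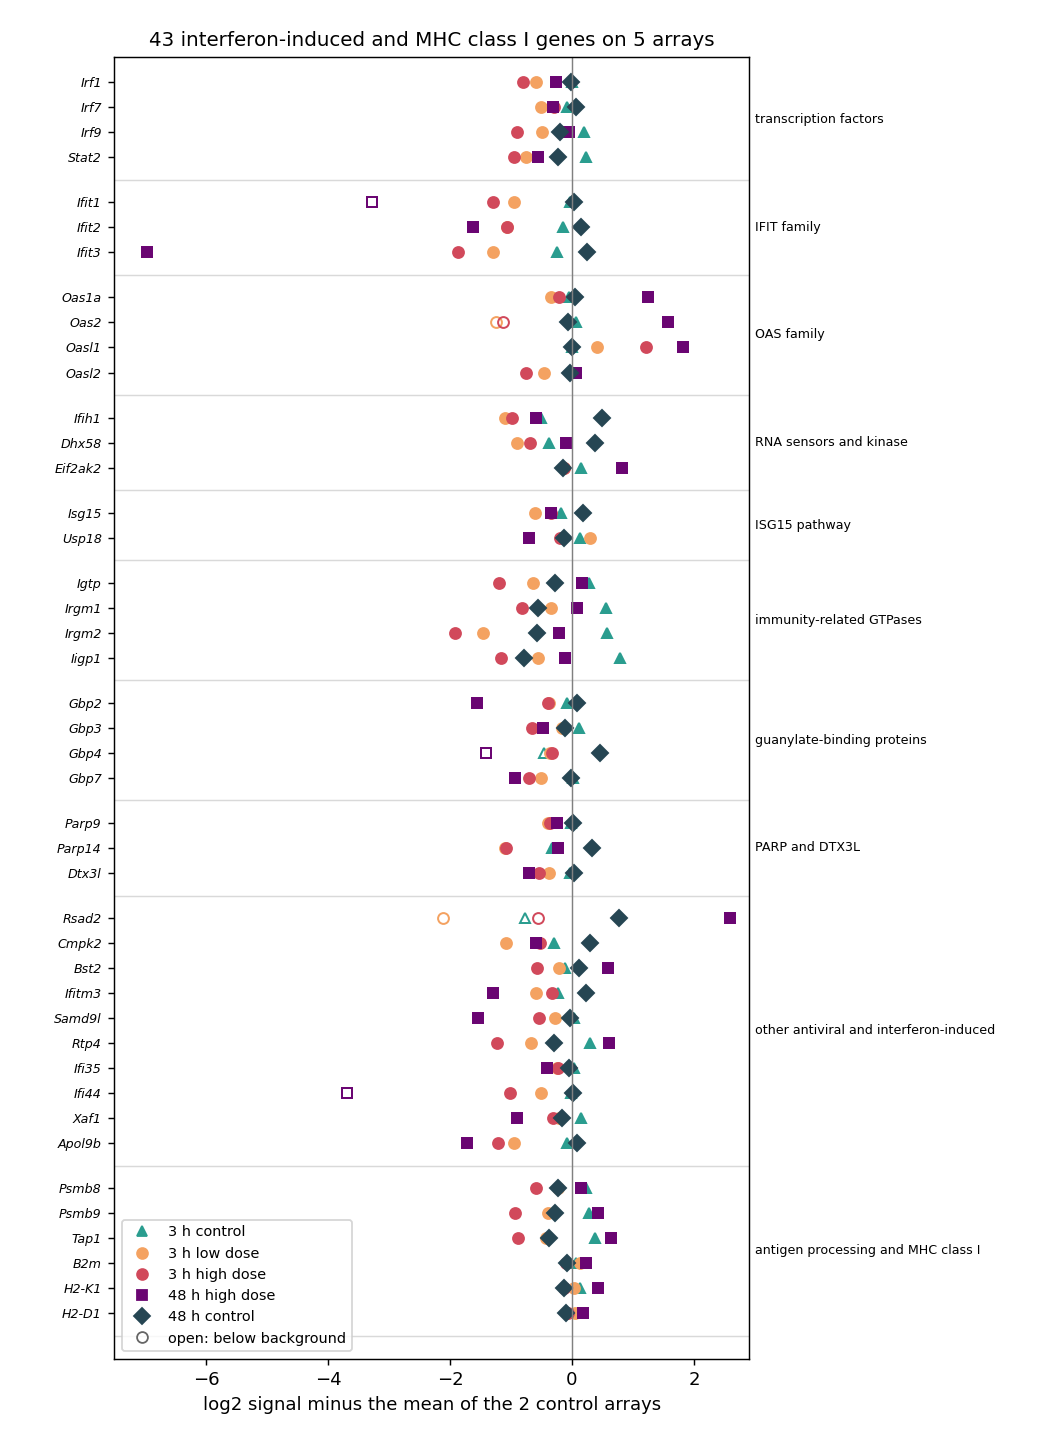
Each line is 1 of the 43 members, grouped by role, and each point is its log2 signal on 1 array minus the mean of the 2 control arrays. Open points are below background. The 3 h high-dose points lie mostly left of 0, the 48 h high-dose points spread to both sides, and Ifit3 at 48 h is the point farthest left.

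Both 3 h doxycycline arrays lay below both control arrays for 29 of the 38 members above background on all arrays, which is 76.3%, against 22.1% of all such genes. Oasl1 lay above both controls on both arrays (22.9% of all genes did so). The members outside this pattern were B2m, Eif2ak2, H2-D1, H2-K1, Iigp1, Irgm1, Psmb8 and Usp18. Along the 3 h series of control, low dose and high dose, 24 of the 38 had levels in falling order, against 24.5% of all genes. The high- and low-dose arrays, which can be compared without a control, differed by at least 2-fold for 0 of 41 members in either direction (0.885% lower and 1.28% higher among all genes), with a median of -0.20 and 28 members below 0.

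**Figure D2:**
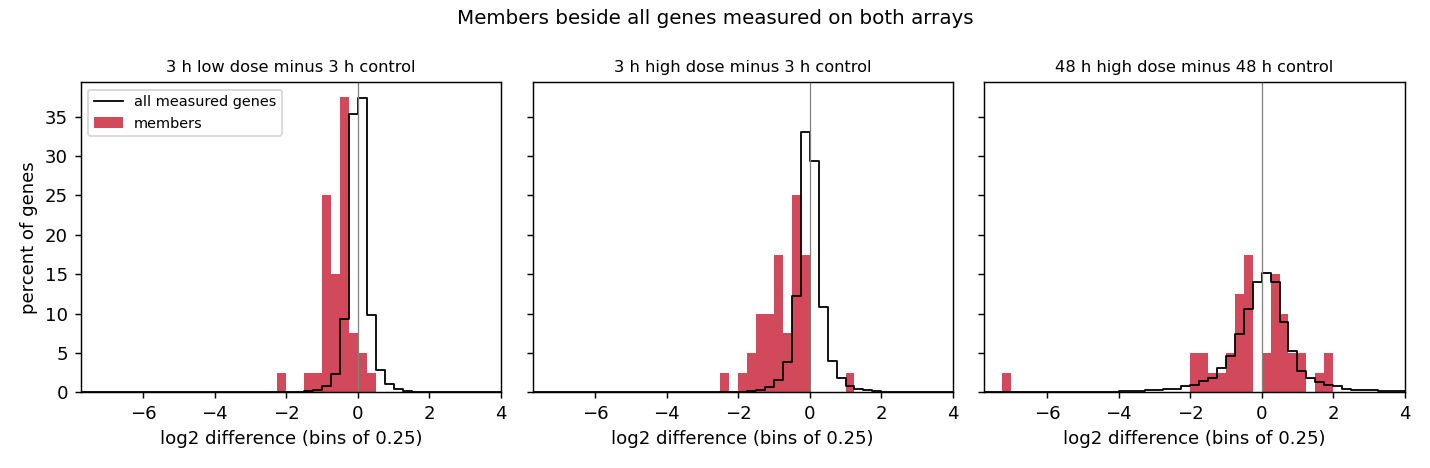
Bars give the percent of measured members, and the black line the percent of all genes measured on both arrays, in bins of 0.25 of the log2 difference. At 3 h the members lie left of the bulk of genes at both doses, and at 48 h all but Ifit3 lie between -2 and 2, on both sides of 0.

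At 48 h the picture was mixed. Of 40 members measured on both arrays, 7 were at least 2-fold lower with the high dose than in the 48 h control and 5 were higher, and Ifit1, Gbp4 and Ifi44 were lower by a bound. The measured members' shares of 17.5% lower and 12.5% higher stand beside 10.1% lower and 9.91% higher among all genes. The share higher was thus near that of genes in general at this time. The share lower was above it, but with normexp 5 members were lower and 2 higher. The members' median was -0.26, against 0.05 over all genes, and with normexp it was -0.04, against 0.09. Against both controls at once, the 48 h array was lower for 6 of 39 members and higher for 3 (7.09% and 7.39% of all genes). Against the 3 h control alone, 7 of 39 were lower and 3 higher (8.88% and 9.41% of all genes). All 3 doxycycline arrays lay below both controls for 18 of 38 members, against 12.2% of all genes. The 48 h array and the 3 h high-dose array differed by at least 2-fold for 2 members lower and 8 higher of 38 (8.43% and 9.13% of all genes), with a median of 0.39. The control arrays themselves differed by at least 2-fold for 3 members lower (Iigp1, Irgm2 and Irgm1) and 1 higher (Ifih1) at 48 h against 3 h, of 41 measured, with a median of -0.06 (1.36% and 2.50% of all genes).

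Among the transcription factors, Stat2, a subunit gene of ISGF3, had levels of 2.61 in the 3 h control, 1.63 at low dose and 1.43 at high dose, and of 1.82 at 48 h with the high dose against 2.15 in the 48 h control. All 3 doxycycline arrays lay below both controls. Irf9, the DNA-binding subunit of ISGF3, stood at 3.05, 2.37 and 1.95 along the 3 h series, and at 2.80 with the high dose against 2.66 in the control at 48 h. Its high-dose difference at 3 h was -1.10 and its 48 h difference was 0.14. Irf1, which interferon gamma induces early, was at 3.14, 2.54 and 2.33 along the 3 h series, and at 2.87 against 3.12 in the control at 48 h, lower on each doxycycline array by 0.25 or more than on either control. Irf7, which amplifies type I interferon production, differed by -0.21 at 3 h with the high dose and by -0.39 at 48 h. For this group the median at 3 h with the high dose was -0.96 and at 48 h -0.29.

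The IFIT genes, whose proteins bind foreign RNA and block its translation, included the member with the largest 48 h difference. Ifit3 stood at 1.96 in the 3 h control, 0.90 at low dose and 0.33 at high dose, a difference of -1.62 from control at the high dose (3.08-fold lower). At 48 h it was at -4.77 with the high dose, against 2.44 in the control, a difference of -7.21 (148-fold lower). That level lies near the lowest signals above background on the 48 h array (-5.28), and background correction by normexp gave -5.06, so the size depends on the correction and the direction did not. Ifit2 was at -2.90, -3.82 and -3.82 along the 3 h series, and at -4.37 against -2.61 in the control at 48 h, where the difference was -1.76 (-0.44 with normexp, which ends the call). Ifit1 was at -3.72, -4.64 and -4.98 along the 3 h series, a high-dose difference of -1.26 (-0.20 with normexp), and was not well above background at 48 h with the high dose, at least 3.09-fold lower than the control. The IFIT probes can read near-identical copies such as Ifit3b, so single members are uncertain.

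Several Ifit genes sit side by side on chromosome 19, so the genes around them are given too. At 48 h Fas, a death receptor gene upstream, differed by -2.75, and Lipa, a lysosomal lipase gene, by -1.13. Within the cluster Ifit3b was at least 79.6-fold lower, whereas Ifit1bl2 differed by -0.13. Downstream, Slc16a12 differed by 0.61, Pank1 by -0.18 and Kif20b, a mitotic kinesin gene, by 3.30. The outermost genes, Acta2 and Htr7, differed by -0.25 and 0.35. The low values were not shared by every gene of the stretch.

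**Figure D3:**
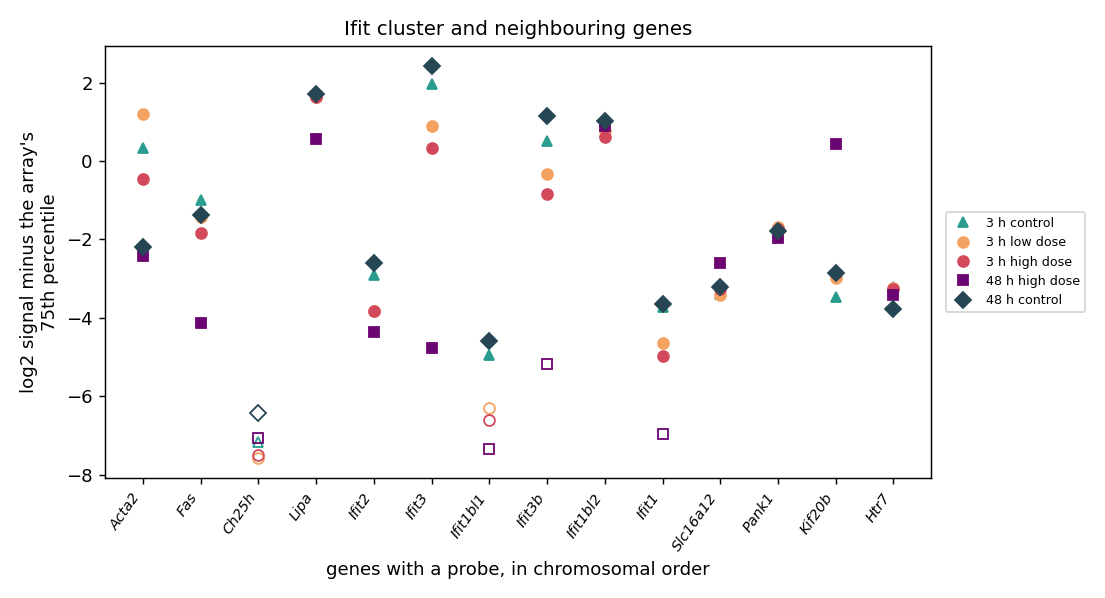
Genes with a probe around the Ifit cluster in chromosomal order, with the log2 signal minus the array's 75th percentile on each of the 5 arrays; open points are below background. Ifit3 and Ifit3b are far lower on the 48 h high-dose array than on the others, while Ifit1bl2, Slc16a12 and Pank1 are not.

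The OAS family, which makes or resembles enzymes that activate RNA degradation, gave 3 of the 5 members higher at 48 h and the 1 member higher at 3 h. Oasl1, an OAS-like gene whose protein restrains Irf7 translation, was at 0.08 in the 3 h control, 0.49 at low dose and 1.29 at high dose, and at 1.89 with the high dose against 0.06 in the control at 48 h. It was the only member above both controls on all 3 doxycycline arrays, a pattern held by 13.8% of all genes. Its 48 h difference was 1.82 (3.54-fold), and at 3 h with the high dose 1.21. Oas1a, a 2-5A synthetase gene, was at 1.07, 0.78 and 0.91 along the 3 h series and at 2.37 against 1.17 in the control at 48 h, a difference of 1.21. At 3 h Oas1a lay close to its controls, and its probe can read other Oas1 copies. Oas2, another synthetase gene, was at -4.45 in the 3 h control, and at -2.95 with the high dose against -4.58 in the control at 48 h. It was not well above background on either 3 h doxycycline array, at least 2.47-fold (low dose) and 2.06-fold (high dose) lower than the 3 h control, and its 48 h difference was 1.63 (0.84 with normexp, which ends the 2-fold call). Oasl2 stood at 0.28, -0.20 and -0.51 along the 3 h series, and at 0.31 against 0.22 in the control at 48 h.

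The immunity-related GTPases, a mouse family that acts on the vacuoles of intracellular parasites, were all lower by 2-fold or more at the 3 h high dose against the 3 h control. Irgm2 was at 2.89 in the 3 h control, 0.86 at low dose and 0.41 at high dose, a high-dose difference of -2.49 (5.60-fold lower). At 48 h it was at 2.10 with the high dose and 1.75 in the control. Its 48 h high-dose level lay between those of the 2 control arrays. Igtp was at 3.09, 2.18 and 1.63 along the 3 h series, and at 2.99 against 2.55 in the control at 48 h. Irgm1 was at 3.64, 2.73 and 2.27 along the same series, and at 3.17 against 2.52 at 48 h. Iigp1 was at 1.47, 0.13 and -0.48, and at 0.58 against -0.10 at 48 h.

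For this family the choice of control mattered. Against the 48 h control the 3 h high-dose differences were -1.34 for Irgm2, -0.91 for Igtp, -0.25 for Irgm1 and -0.39 for Iigp1, where against the 3 h control they were -2.49, -1.46, -1.37 and -1.95. Each of these genes had its highest level on the 3 h control array. The 48 h control minus the 3 h control was -1.14 for Irgm2, -0.54 for Igtp, -1.12 for Irgm1 and -1.56 for Iigp1. The second probe for Iigp1 differed by -3.16 at 3 h and 1.25 at 48 h. The group's median at 48 h was 0.54.

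The guanylate-binding proteins, GTPases of the same antimicrobial system, gave medians of -0.72 at 3 h and -0.91 at 48 h. Gbp2 was at 0.24, -0.06 and -0.07 along the 3 h series and at -1.23 against 0.40 in the control at 48 h, a difference of -1.63. Gbp3 and Gbp7 differed by -0.77 and -0.72 at 3 h with the high dose and by -0.35 and -0.91 at 48 h. Gbp4 was above background on 3 of the arrays, at -4.95 with the 3 h high dose against -4.16 in the 48 h control.

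Antigen processing and MHC class I members divided into the processing machinery and the presenting molecules. Tap1, a subunit of the peptide transporter, stood at 0.24, -0.56 and -1.02 along the 3 h series and at 0.51 with the high dose against -0.52 in the control at 48 h. Its differences at the high dose were -1.26 at 3 h and 1.03 at 48 h (0.94 with normexp, which ends the 48 h call). Psmb9, an immunoproteasome subunit, was at 3.39, 2.72 and 2.18 along the 3 h series and at 3.54 against 2.84 at 48 h. Psmb8, its partner subunit, followed with 2.95, 2.50 and 2.12 at 3 h, and with 2.87 against 2.49 at 48 h. At 3 h, against the 3 h control, the molecules that present peptide differed less than the processing machinery. Against the 48 h control the low dose gave -0.05 for Tap1, -0.11 for Psmb9 and 0.01 for Psmb8, beside 0.22 for B2m, 0.16 for H2-K1 and 0.15 for H2-D1. The high dose gave -0.50 for Tap1, -0.66 for Psmb9 and -0.37 for Psmb8 against that control. B2m, the class I light chain, was at 8.07, 8.13 and 7.90 along the 3 h series and at 8.22 against 7.92 at 48 h. H2-K1 and H2-D1, the heavy chains, differed by -0.26 and -0.17 at 3 h with the high dose and by 0.56 and 0.29 at 48 h. The heavy chain probes can read other class I genes.

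The remaining antiviral members did not share a direction at 48 h. Apol9b, an apolipoprotein L gene, was at 0.26, -0.61 and -0.87 along the 3 h series and at -1.38 with the high dose against 0.42 in the control at 48 h. It was below both controls on all 3 doxycycline arrays, with a 48 h difference of -1.81, and its probe can read the close copy Apol9a. Ifitm3, which blocks entry of enveloped viruses, was at 4.84, 4.48 and 4.75 along the 3 h series and at 3.78 against 5.30 at 48 h. Samd9l, an antiviral restriction factor, was at 2.77, 2.46 and 2.19, and at 1.20 against 2.70 at 48 h. Both were within 2-fold of control at 3 h and past it at 48 h, by -1.53 and -1.49. Rtp4, a receptor transporter protein gene, was at 0.14, -0.83 and -1.39, and at 0.46 against -0.45 at 48 h, so that it was lower at 3 h and higher at 48 h.

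Members near background gave bounds. Ifi44 was at -3.27, -3.76 and -4.27 along the 3 h series, the high dose being 1.99-fold lower than control, just short of 2-fold. At 48 h it was not well above background with the high dose, at least 4.13-fold lower than the control. Rsad2, which encodes the antiviral enzyme viperin, was above background on the 48 h arrays alone, at -2.88 with the high dose and -4.69 in the control, a difference of 1.81 (0.88 with normexp, which ends the call). Its neighbour Cmpk2, a nucleotide kinase gene, differed by -0.24 at 3 h and -0.87 at 48 h. Bst2, which tethers budding virus, differed by -0.45 and 0.47, Xaf1 by -0.47 and -0.74, and Ifi35 by -0.26 and -0.37.

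Among the RNA sensors, Eif2ak2, the RNA-dependent kinase that halts translation, was at 0.51, 0.23 and 0.22 along the 3 h series and at 1.19 against 0.21 at 48 h. Ifih1, which senses long double-stranded RNA, differed by -0.47 at 3 h and -1.09 at 48 h (-0.54 with normexp, which ends the call), and it was 2-fold higher in the 48 h control than in the 3 h control. Dhx58, its regulator, differed by -0.31 and -0.48. The sensors gave both higher and lower values at 48 h. Usp18, the protease that removes the ubiquitin-like modifier ISG15, was at 3.01, 3.17 and 2.68 along the 3 h series and at 2.16 against 2.74 at 48 h. Isg15 itself differed by -0.17 and -0.52, and its second probe by 0.18 at 3 h. Parp9, an ADP-ribosyltransferase family gene, was at 0.25, -0.12 and -0.10 along the 3 h series and at 0.02 against 0.29 at 48 h, close to its controls throughout. Parp14 differed by -0.75 and -0.55, and Dtx3l, the ubiquitin ligase partner of PARP9, by -0.51 and -0.73.

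**Figure D4:**
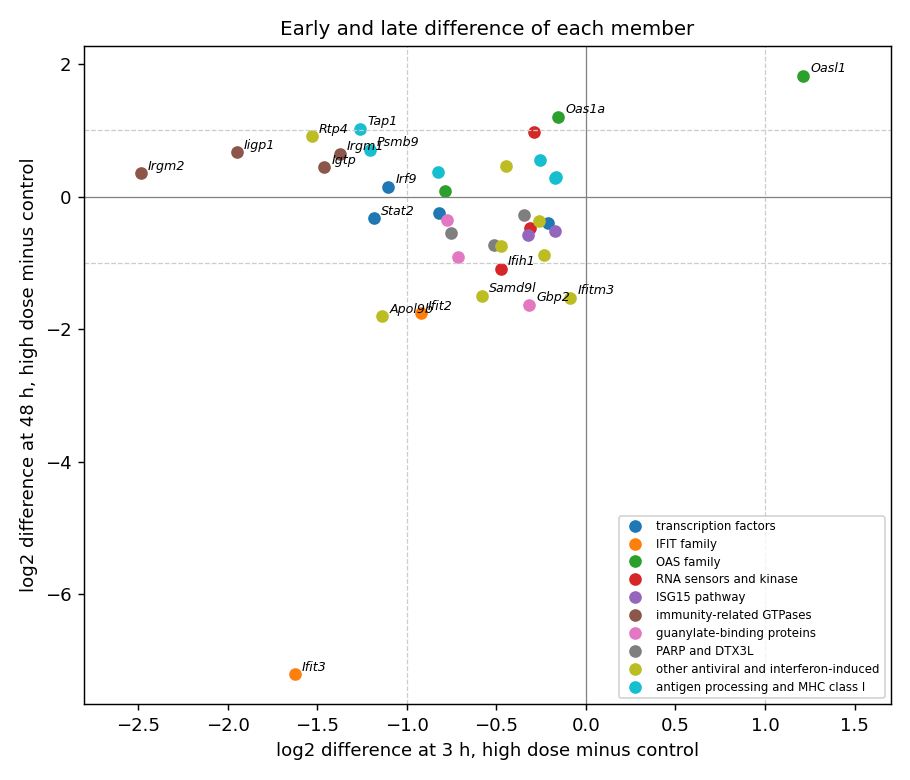
Each point is 1 member measured on all 4 arrays, with the log2 difference of the high dose from control at 3 h across and at 48 h up; dashed lines mark 2-fold. Points at the upper left were lower at 3 h and higher at 48 h, the lone point at the bottom is Ifit3, and Oasl1 is alone at the upper right.

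The change between times was described by the 48 h difference minus the 3 h difference for 38 members. Its median was 0.44, against 0.05 over all genes, and 11 members were at 1 or above and 3 at -1 or below, against 9.63% and 10.9% of all genes. These values have no test, since the 4 arrays leave no residual degrees of freedom for them. The high dose with time as a term, fitted in limma over the same 4 arrays, called 0 of 14599 genes at an adjusted p of 0.05; at an unadjusted p of 0.05 it listed 498 genes, with 5 members lower and 1 higher, against 1.46% and 1.95% of all genes.

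The fit of all 3 doxycycline arrays against both controls likewise called 0 of 14763 genes, in a limma fit with Benjamini-Hochberg adjustment. At an unadjusted p of 0.05 it listed 468 genes, of which 6 members were lower and 1 was higher, against 1.56% and 1.61% of all genes. Apol9b had the lowest unadjusted p among them, with a difference of -1.30 (SE 0.274, unadjusted p 0.00518, adjusted p 0.866). Below 0 lay 37 of the 43 members, with a median of -0.48. Leaving out the 48 h high-dose array put 23 members lower and 1 higher at the unadjusted threshold, against 4.89% and 5.23% of all genes, with a lowest adjusted p among members of 0.267. Leaving out the 3 h high-dose array left 3 lower and 0 higher (0.514% and 0.884% of all genes). Leaving out the 3 h low-dose array gave 7 and 1 (1.68% and 1.82% of all genes). Leaving out a control array leaves 1 control, so only the members' median difference is given. It was -0.36 without the 3 h control and -0.51 without the 48 h control, against 0.01 over all genes in both fits.

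The other genes of the pathway were listed alongside. Of 78 other interferon-induced genes, 69 had a probe. On the 3 h high-dose array 5 of 54 were lower and 0 higher than the 3 h control (1.44% and 1.86% of all genes), with a median of -0.14. Both 3 h doxycycline arrays lay below both controls for 25 of 52 (22.1% of all genes). At 48 h 9 of 54 were lower and 2 higher (10.1% and 9.91% of all genes). Casp1, an inflammatory caspase gene, differed by -1.84 at 3 h, Ifit3b by -1.35, Trafd1, a feedback inhibitor gene, by 2.15 at 48 h, and Ifitm1, a relative of Ifitm3, by -1.62 at 48 h. Among receptors and kinases, 2 of 14 were lower and 0 higher at the 3 h high dose than in the 3 h control (1.44% and 1.86% of all genes). Against the 48 h control 0 of 14 were lower or higher (3.07% and 1.97% of all genes). At 48 h 1 of 15 was lower and 0 higher than in the 48 h control (10.1% and 9.91% of all genes). The lower one was Tyk2, a JAK kinase gene, which differed by -1.34. Against the 3 h control 4 of 14 were lower and 0 higher at 48 h (8.88% and 9.41% of all genes). Among nucleic acid sensors, 2 of 19 were lower and 1 higher at 3 h (1.44% and 1.86% of all genes). At 48 h 2 of 18 were lower and 3 higher (10.1% and 9.91% of all genes). Cgas, the DNA sensor, differed by 1.65, Tlr7, an endosomal RNA sensor, by 1.39 and Irf5 by -1.16 at 48 h.

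Of the interferon ligands, 17 of 21 had a probe and 6 were below background on all arrays. Ifna5, a type I interferon gene, was at -4.38, -3.87 and -0.22 along the 3 h series and at -3.60 against -3.90 at 48 h, high on 1 array only. Ifna11 differed by -1.66 at 48 h. Ifng, the type II interferon gene, was above background only on the high-dose arrays, at least 12.6-fold higher than control at 48 h and 1.26-fold at 3 h, and was named after its values were seen. Antigen processing and other class I genes gave 0 of 29 lower or higher at 3 h (1.44% and 1.86% of all genes). At 48 h 1 was lower and 4 higher (10.1% and 9.91% of all genes). Among them H2-Q1 differed by 2.65, H2-Q8 by 1.64 and Cd1d1 by -1.54.

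Markers of other cell types moved with part of these results. Of 18 macrophage genes with a probe, 12, 14 and 9 were above background along the 3 h series, and 15 with the high dose against 9 in the control at 48 h. At the 3 h high dose 2 of 9 measured macrophage genes were lower and 0 higher than the 3 h control (1.44% and 1.86% of all genes), with a median of -0.47. Against the 48 h control 0 of 9 differed by 2-fold (3.07% lower and 1.97% higher among all genes), with a median of -0.27. Their summed signal relative to the 75th percentile was 27.8, 29.2 and 28.3 at 3 h and 66.8 against 34.0 at 48 h. At 48 h 7 of 9 were higher (9.91% of all genes), among them Csf1r by 2.41. Tyrobp, Lyz2 and C1qc were above background on the 3 h control, the 3 h low-dose and the 48 h high-dose arrays, and not on the 3 h high-dose and 48 h control arrays, and Spi1 and Cx3cr1 were below background on all. At the 3 h low dose 0 of 12 macrophage genes were 2-fold lower or higher than the 3 h control (0.583% and 0.761% of all genes). Their median there was -0.10, and the members' median was -0.48. At the 3 h high dose the members' medians were -0.65 and -0.57 against the 3 h and 48 h controls. Between the 3 h doses 3 of 9 macrophage genes were lower at the high dose (0.885% of all genes), with a median of -0.36. Of the members, 0 of 41 were lower between these doses, with a median of -0.20. MHC class II genes were higher in 5 of 8 and lower in 1 at 48 h (9.91% and 10.1% of all genes), with a median of 1.18. H2-Eb1 differed by 1.31. Against the 3 h control the 48 h high dose gave 1 of 8 higher and 0 lower (9.41% and 8.88% of all genes), with a median of 0.60. The part of these markers in the members' values was not tested.

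Lymphocyte, dendritic, endothelial and epithelial markers were below background on all arrays for 7 of 16, 4 of 8, 3 of 7 and 2 of 6 genes. All 10 mesenchymal markers were above background on all arrays, and 8 of them were lower at 48 h with the high dose (10.1% of all genes). At the 3 h high dose 2 of the 10 were lower than the 3 h control (1.44% of all genes), with a median of -0.52. At the low dose 0 were (0.583% of all genes), with a median of 0.04. Of 12 melanocytic and neural crest markers, 7 were above background on all arrays, Sox10, Mitf and S100b among them, and Dct, Tyrp1, Erbb3 and Foxd3 on none. Fos, an immediate early gene and known target of CREB and ATF1, was at -2.22, -0.50 and 2.18 along the 3 h series and at 2.86 against -2.22 in the control at 48 h, higher on each doxycycline array than on both controls. Across the arrays the 75th percentile of signal ran from 420 to 725, and the share of 55681 probes above background from 55.5% to 60.0%.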

How the data were processed

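RNA of mouse EWS/ATF1 tumour cell lines was read on 5 one-colour arrays, 1 per group. Per the file headers, Agilent Feature Extraction made the deposited intensity values, on a linear scale, with background subtraction and spatial detrending inside an array; the submitters' processing notes name version 10.7.3.1. The deposited value table held the same intensity within 0.001 log2 for at least 99.4% of probes, with column medians of 38.6, 32.7, 32.2, 24.1 and 38.1 for the 3 h arrays (control, low, high) and the 48 h arrays (high dose, control); it is linear and not centred. The deposited flag columns (other) mark spots well above background and outliers.

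Spots of a probe were averaged after outliers, 111 to 146 per array, were left out, and log2 signal minus the array's 75th percentile was used. A probe counted as above background with at least 0.5 of its spots so marked. Where a gene was below background on 1 array a bound was given, against the lowest signal above background there or its own signal if higher. Unversioned accessions were looked up in RefSeq's GRCm38.p6 table, for names and promoters only, since the array design is on an older build: 26413 probes received 1 symbol and 29268 none. Among 43 members 11 had more than 1 probe; Dtx3l, Isg15 and Oas1a had second probes that differed in sign at 3 h. All 5 arrays were on 1 slide and 1 scan, so slide and scan did not separate the groups; batches of culture, RNA or labelling are unknown here.

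Differences of 2-fold were counted, with no test. The limma fits (limma 3.58.1, R 4.3.3; Python 3.11.15) used eBayes with a trend and Benjamini-Hochberg adjustment over genes above background on at least 2 arrays; the fit of all 5 arrays leaves 3 residual degrees of freedom and that of 4 arrays leaves 1. The fitting code was tested on simulated data. Alternatives were normexp (on the median and background median signals, since the files used hold no mean signal), centring on the median, quantile normalisation, the value table, the mean of all probes, other filters, a 1.5-fold threshold and each array left out. Members, lists and tests were chosen with earlier results of these data known. All members were accounted for; the rule gave levels on all arrays for those at 2-fold against both controls on any doxycycline array and for the brightest of each role, and other members were given so where a group turned on them. Of the other lists, up to 4 genes each at 2-fold against both controls were named. The number of arrays limits the precision. A further gene was left out of the text and is not reported here.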

Additional observations from a re-analysis of the deposited data

Results flagged for a closer look

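The 5 members Iigp1, Rtp4, Tap1, Irgm1 and Psmb9 had high-dose differences of at least 1.5-fold in opposite directions, lower than control at 3 h and higher than control at 48 h. The 48 h difference minus the 3 h difference was 2.62 for Iigp1 (0.67 and -1.95), 2.44 for Rtp4 (0.91 and -1.53), 2.29 for Tap1 (1.03 and -1.26), 2.02 for Irgm1 (0.65 and -1.37) and 1.91 for Psmb9 (0.70 and -1.21). Each value rests on 1 array per group, and the difference between the times was not tested. How many of all genes hold this pattern was not counted. A 48 h difference minus 3 h difference of 1 or above was held by 9.63% of all genes. Against the 48 h control the 3 h differences were -0.39 for Iigp1, -0.94 for Rtp4, -0.50 for Tap1, -0.25 for Irgm1 and -0.66 for Psmb9, all below 0. Against the 3 h control the 48 h high-dose differences were -0.89 for Iigp1 and -0.47 for Irgm1, below 0, and 0.32 for Rtp4, 0.27 for Tap1 and 0.15 for Psmb9. The opposite signs thus depend on the control for Iigp1 and Irgm1. For Rtp4, Tap1 and Psmb9 the signs held, but these 48 h differences were below 1.5-fold. The 1.5-fold pattern therefore depends on the control for all 5 members.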

How the results depend on the processing

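None of the values recomputed (summaries, and members called in the high-dose comparison of their own time) reversed direction, but the second probes of Isg15, Dtx3l and Oas1a differed by 0.18, 0.24 and 0.13 at 3 h, opposite in sign to the probes used. Among summary values 244 held and 32 moved, and among values for single members 110 held and 15 moved. With normexp the median was -0.40 for the 3 h high dose against the 3 h control and -0.041 at 48 h, and the count lower against the 48 h control was 4 for the 3 h high dose and 3 for the low dose, while 2 members were higher at 48 h. With a 1.5-fold threshold the counts lower were 20 (3 h high dose against either control), 17 and 12 (3 h low dose against the 3 h and 48 h controls), 11 with 10 higher (48 h against its control), 14 with 5 higher (48 h against the 3 h control), 4 with 15 higher (48 h against 3 h high dose), 1 with 1 higher (3 h high against low dose) and 5 with 3 higher (between controls). No share of all genes was computed at 1.5-fold, so these counts do not show whether the members differ from genes in general. At 48 h against its control the 10th and 90th percentiles of all genes lay at -1.01 and 0.99. The low dose against the 3 h control gave 5 lower when centred on the median and 5 without the filter on dim probes. Without that filter 1 member was higher between 3 h doses, 5 were lower between 48 h and 3 h high dose, 2 were higher between controls, and the fit with time called 4 genes, none of them members. Quantile normalisation gave 4 lower between 48 h and 3 h high dose and 0.15 for the difference between times. Requiring signal on all 5 arrays left 3 higher at 48 h. Between controls 0 were higher with normexp, median centring, quantile normalisation and the value table. Centring on the median moved the median of all genes by -0.12 in the 3 h high-dose comparison. Leaving out any 1 array gave 0 to 0 called genes. No paired analysis was possible because each group has 1 array and the labels carry no replicate numbers; time as a term was fitted instead. Members near background, such as Ifit1, Gbp4, Ifi44 and Rsad2, are limited by signal.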
